A study of Mus musculus with 4 samples.

Results

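The genes described here are those that separated mouse dental follicle from dental papilla in the same direction at both stages of the study, E17 and PN2 as the labels write them. For each gene the log2 ratio of follicle (DF) over papilla (P) was taken at each stage from the quantile-normalised signals, and the mean of both ratios is the value of the gene. The comparison was made over 14238 of the 16039 genes named for the array, those with a normalised signal of 100 or more in at least 1 column. Of these, 10244 (71.9%) had ratios of the same sign at both stages, 4582 on the follicle side and 5662 on the papilla side. Within them, 1662 genes were past 2-fold at both stages, 862 on the follicle side and 800 on the papilla side. The other 3994 genes had ratios of opposite sign.

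The 4 groups were untreated tissue by the labels: follicle at E17, papilla at E17, follicle at PN2 and papilla at PN2. Strain, genotype, sex and number of animals were not given in the sources used here. By the labels RNA was measured on 2-colour Agilent arrays. Each tissue and stage has 1 signal column, which is identical in every table where it recurs, so there is no repeated hybridisation. In both arrays that set follicle against papilla the labels put follicle in Cy5 and papilla in Cy3. By these labels, tissue and dye cannot be told apart. The DF E17 and P PN2 columns recur unchanged on either side of a comparison, so the signals themselves do not show which dye gave them. The labels also carry a whole-embryo description, a stem cell culture protocol and 1 tissue entry reading DF PN3, and the sample titles were followed here. The table titled for papilla at both stages has a column headed DF E17 in place of P E17, and P E17 was therefore read from the table that compares both tissues at E17. Median signals before normalisation lay between 205 and 352 in the 4 columns. The number of arrays limits the precision, and no value below holds variation between animals.

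A tooth grows from an epithelial enamel organ and from mesenchyme of neural crest origin. The dental papilla is the mesenchyme enclosed by the enamel organ and gives rise to the odontoblasts that lay down dentin and to the pulp. The dental follicle is the mesenchymal sac around the tooth germ that gives rise to cementum, periodontal ligament and the lining bone of the socket, and osteoclasts recruited to it open the eruption path. BMP, FGF, Wnt and Hedgehog signals pass between epithelium and mesenchyme, and homeobox factors of the Msx, Dlx and Barx families set the fate of the tooth mesenchyme.

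The question of the tissue comparison is which differences between follicle and papilla are held in common by the embryonic and the postnatal stage. A limma fit of all 14238 genes with stage and tissue as terms tested the mean ratio against 0, with a two-sided moderated test and Benjamini-Hochberg adjustment over all of them. Its error is the disagreement of the 2 stages, with 1 residual degree of freedom per gene shared across genes, so the stages stand in for replicates and a p-value sets the size of the mean ratio against its spread between E17 and PN2 only. At an adjusted p under 0.05 it called 1021 genes on the follicle side (7.17% of genes tested) and 995 on the papilla side (6.99%). The genes past 2-fold at both stages make up 6.05% of all genes on the follicle side and 5.62% on the papilla side, and these shares are the background for every count of list members below. Of the 862 follicle genes 846 were also called, and of the 800 papilla genes 777. Both rules use the same 2 ratios, so this overlap was largely fixed in advance. A call on a gene past 2-fold at both stages, here or in the lists below, is therefore no separate support. The fit called another 175 and 218 genes that missed 2-fold at 1 stage or both. No call fell on a gene with ratios of opposite sign. The split between the sides depended on the scaling: of the genes past 2-fold at both stages, 51.9% were on the follicle side here, 39.0% with no normalisation and 60.9% with the deposited ratios. Of the limma calls, 50.6% were on the follicle side here, 60.9% with the deposited ratios and 67.5% when the stage term was left out, which left 445 and 214 calls.

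More of the shared follicle genes than of the shared papilla genes reached large ratios. Past 4-fold at both stages were 235 follicle and 102 papilla genes, past 8-fold 75 and 17, and past 16-fold 24 and 7. The median log2 ratio of the 862 follicle genes was 1.77 at E17 and 1.81 at PN2, and that of the 800 papilla genes was -1.41 and -1.68. Ratios at E17 and PN2 lay within 2-fold of each other for 697 follicle and 660 papilla genes, and differed by more than 4-fold for 30 and 16. The larger ratio was at PN2 for 468 follicle and 523 papilla genes. Within a tissue, follicle genes changed little from E17 to PN2, with median log2 changes of 0.07 in follicle and 0.02 in papilla, while papilla genes stood at -0.37 in follicle and -0.25 in papilla. Just inside the 2-fold limit were Ralgds, with a smaller log2 ratio of 1.0005, and Acap3, with 1.003 toward papilla. Just outside it were H6pd, with 0.9998, and Olfr1406, with 0.9999 toward papilla. Several probes stood for 337 follicle genes and 169 papilla genes, and all probes lay on the side of the gene for 317 and 161 of them.

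**Figure D1:**
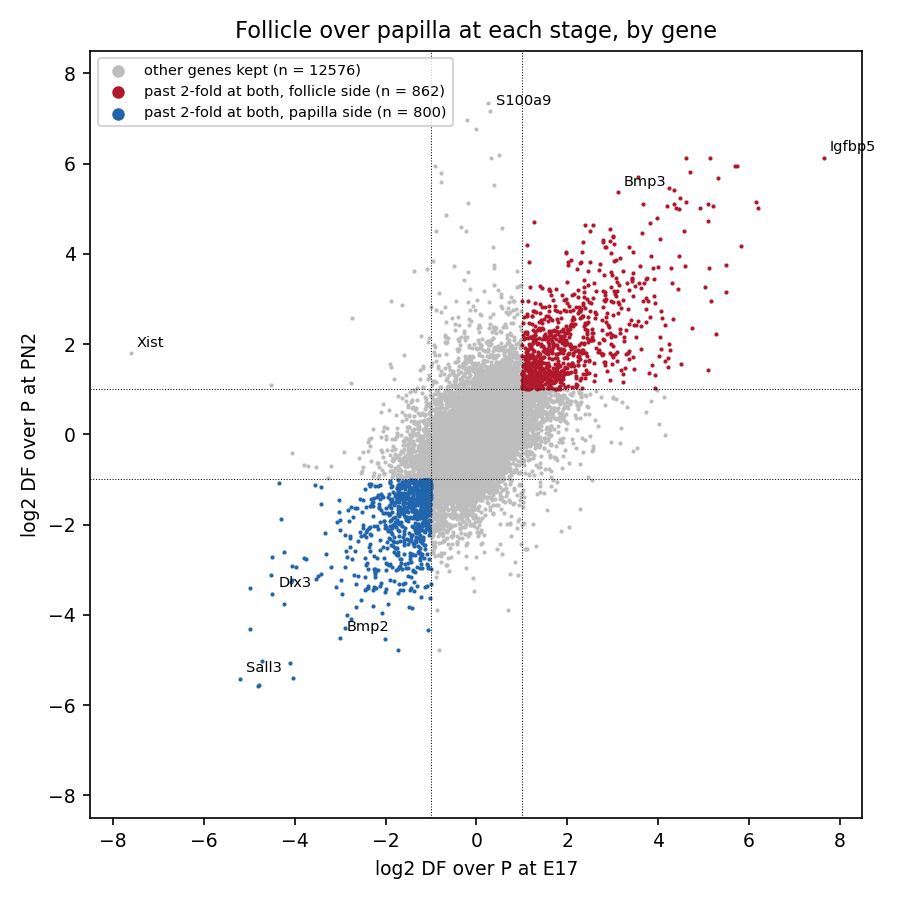
Each point is a gene, with its log2 ratio of DF over P at E17 on the x axis and at PN2 on the y axis, and dotted lines mark 2-fold. Red points are the 862 genes past 2-fold toward follicle at both stages and blue points the 800 toward papilla; Xist lies in the upper left with opposite signs, and S100a9 lies near 0 at E17 and high at PN2.

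The 15 leading follicle genes began with Igfbp5, C1ql3, Mmp13, Dhh and Acp5. The gene of the insulin-like growth factor binding protein Igfbp5 had signals of 30739.5 in DF E17 and 24264 in DF PN2 against 153 in P E17 and 346 in P PN2. Its mean log2 ratio was 6.89 ± 1.07 (SD, n = 2 stages), the largest of the 15 leading genes, with an adjusted p of 0.000197 in the limma fit. Both follicle columns were far above both papilla columns, and papilla signal was the part that differed most between stages. C1ql3, which codes for a secreted C1q-like protein known from synapses, had signals of 5594 in DF E17 and 6821 in DF PN2 against 104 in P E17 and 111 in P PN2 and a mean log2 ratio of 5.85 ± 0.14. Mmp13, the collagenase of remodelling bone and cartilage, had signals of 2754 in DF E17 and 4646 in DF PN2 against 53.2 in P E17 and 75.7 in P PN2 and a mean log2 ratio of 5.82 ± 0.17. For both genes the 2 columns of each tissue lay close together and far from the other tissue. Bone sialoprotein (Ibsp), a mineral-binding matrix protein of osteoblasts, cementoblasts and osteoclasts, had signals of 15085 in DF E17 and 20649 in DF PN2 against 205 in P E17 and 636 in P PN2 and ratios of 6.20 at E17 and 5.02 at PN2. The prostaglandin F receptor gene Ptgfr, with signals of 3142 in DF E17 and 2447 in DF PN2 against 85.2 in P E17 and 72.9 in P PN2, and the endothelin receptor gene Ednrb, with 3991 in DF E17 and 5411 in DF PN2 against 117 in P E17 and 157 in P PN2, were among the steadiest of the leading genes. Their log2 ratios were 5.20 at E17 and 5.07 at PN2 for Ptgfr, and 5.09 at E17 and 5.10 at PN2 for Ednrb. Tgm2, the tissue transglutaminase that crosslinks matrix proteins, had a mean log2 ratio of 4.54 ± 0.05, and Vgll3, a cofactor of TEAD transcription factors, one of 4.97 ± 0.07. Papilla signals of Vgll3 (34.1 at E17 and 40.2 at PN2) lay at the floor of the array, where 37.9 is the 5th percentile of all normalised signals, so its ratio is less exact, as is any ratio below that rests on a signal under 37.9.

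**Figure D2:**
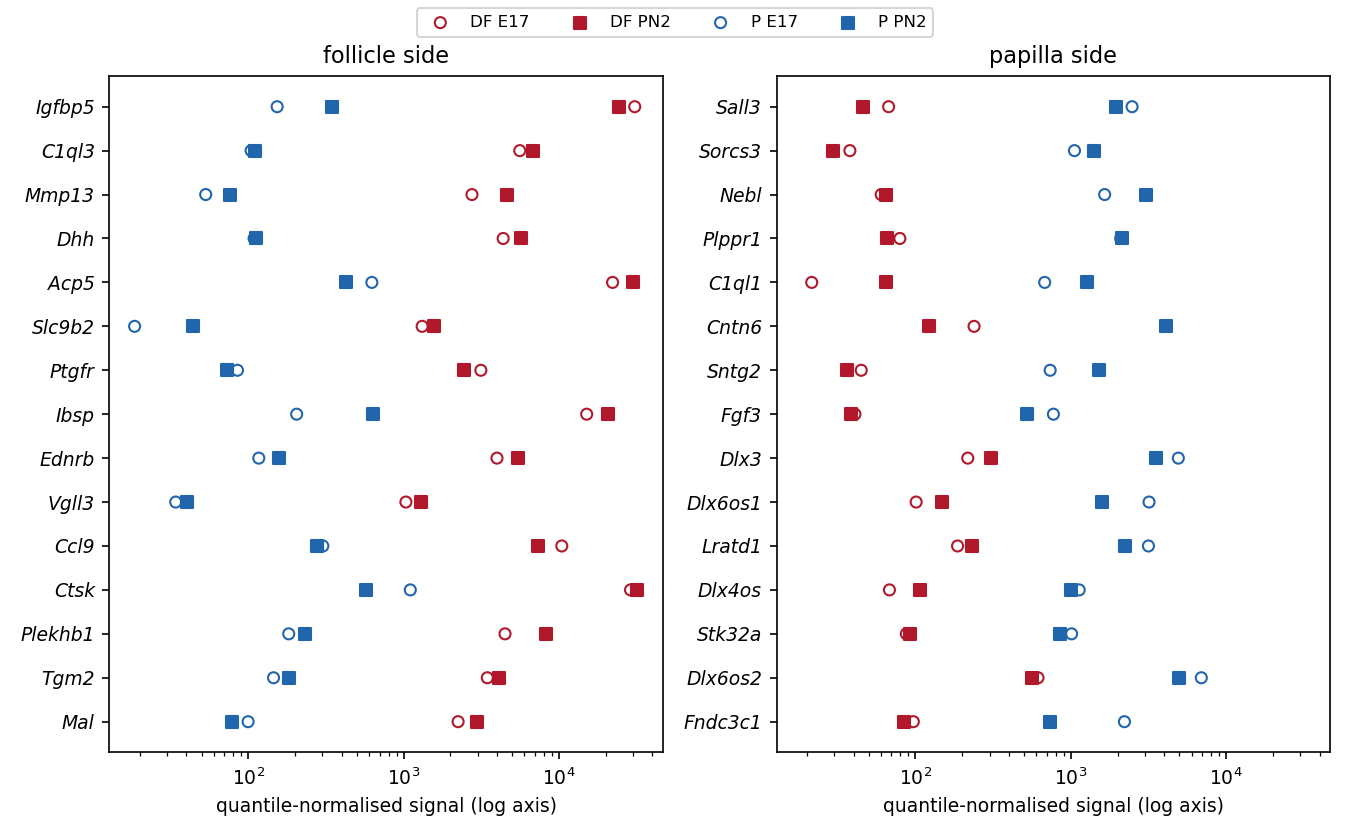
Quantile-normalised signals on a log axis for the 15 leading genes on each side, 1 row per gene, with red for follicle, blue for papilla, open circles for E17 and filled squares for PN2. In every row both signals of the higher tissue lie apart from both signals of the lower tissue, which the choice of genes by their smaller ratio favours.

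Osteoclasts are the multinucleated cells that resorb bone and open the eruption path, and their list had the largest share of shared genes among the 30 lists. Of 18 osteoclast genes kept, 16 were past 2-fold toward follicle at both stages and called, and 0 toward papilla, with a median mean log2 ratio of 2.76 against -0.06 over all genes. Tartrate-resistant acid phosphatase (Acp5), an enzyme osteoclasts secrete, had signals of 22140.2 in DF E17 and 29754 in DF PN2 against 624 in P E17 and 424 in P PN2, and a mean log2 ratio of 5.64 ± 0.70. The collagen-degrading protease cathepsin K (Ctsk) had signals of 28886 in DF E17 and 32022 in DF PN2 against 1104 in P E17 and 572 in P PN2 and a mean log2 ratio of 5.26 ± 0.78. Both genes had lower papilla signal at PN2 than at E17 and higher follicle signal, so their ratios were larger after birth. The fusion proteins Dcstamp and Ocstamp, which osteoclast precursors need to become multinucleated, had mean log2 ratios of 3.62 and 2.97. The proton pump subunit Atp6v0d2 had 3.23, the master transcription factor Nfatc1 2.90 and the calcitonin receptor Calcr 2.61. Tnfrsf11a, the receptor RANK for the osteoclast-forming ligand, had ratios of 2.59 at E17 and 1.57 at PN2. Car2 and Clcn7, which act in acidifying the resorption pit, were not called. Their ratios were 0.15 at E17 and 0.69 at PN2 for Car2 and 0.09 at E17 and 0.01 at PN2 for Clcn7. Only 1 of the 2 probes of Itgb3 lay on the follicle side at both stages, so its call rests on their mean. Summed over the list, signal was 91892 at E17 and 103105 at PN2 in follicle, and 9727 at E17 and 9831 at PN2 in papilla. In bulk tissue, fewer cells of a type and less RNA per cell cannot be told apart.

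Leukocyte genes moved in the same direction. Of 18 macrophage and leukocyte genes, 14 were past 2-fold toward follicle at both stages and called, and 0 toward papilla, with a median of 2.48. The adaptor gene Tyrobp, used by myeloid receptors, had signals of 10544 in DF E17 and 10840.2 in DF PN2 against 792 in P E17 and 1345 in P PN2. The receptor of macrophage colony-stimulating factor (Csf1r) had signals of 4194 in DF E17 and 5877 in DF PN2 against 478 in P E17 and 789 in P PN2 and a mean log2 ratio of 3.01 ± 0.17. Spi1, the transcription factor PU.1 of the myeloid lineage, had ratios of 3.47 at E17 and 2.42 at PN2, and the pan-leukocyte phosphatase Ptprc had 2.46 at E17 and 3.30 at PN2. In all of these the higher tissue was follicle at both stages. Adgre1, Aif1, Coro1a and Cd14 were not called, and Cd14 lay at -0.09 at E17 and 0.01 at PN2. Complement, which macrophages and fibroblasts both make, had 7 of 12 genes past 2-fold toward follicle and called, and 0 toward papilla. They were the C1q chain genes C1qa, C1qb and C1qc, the proteases C1ra and C1s1, and C2 and C4b, with C1qc highest at 3.24 and C4b lowest at 1.17. Ccl9, a chemokine of myeloid cells, was among the 15 leading follicle genes with signals of 10429.9 in DF E17 and 7351 in DF PN2 against 302 in P E17 and 277 in P PN2. The signal summed over the leukocyte list was 37619 at E17 and 50784 at PN2 in follicle, and 5069.9 at E17 and 7929 at PN2 in papilla. The part of these cells in the other follicle ratios was not tested.

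Glial genes formed another shared follicle group. Of 11 Schwann cell and nerve genes, 7 were past 2-fold toward follicle at both stages and called, with a median of 2.29. Dhh, the Hedgehog ligand that Schwann cells secrete, had signals of 4373 in DF E17 and 5719 in DF PN2 against 109 in P E17 and 112 in P PN2, a mean log2 ratio of 5.50 ± 0.25 and an adjusted p of 0.000197 in the limma fit. Sox10, the transcription factor of neural crest glia, had signals of 1258 in DF E17 and 2461 in DF PN2 against 88.3 in P E17 and 95.3 in P PN2. The neuregulin receptor Erbb3 had ratios of 3.36 at E17 and 4.16 at PN2, and myelin basic protein (Mbp) 4.36 at E17 and 5.10 at PN2. Plekhb1, with a mean of 4.88, and the myelin proteolipid Mal, with 4.86, are leading follicle genes known from myelinating cells. Neuronal genes did not share this direction: Gap43 lay at -0.15 at E17 and -0.13 at PN2 without a call, and neuronal tubulin Tubb3 was called toward papilla at -0.84 at E17 and -2.11 at PN2, a call lost with the deposited ratios. The call of Foxd3, a neural crest factor, toward follicle (1.20) was lost with median centring and with no normalisation. Signal summed over the list was 17247 at E17 and 21418 at PN2 in follicle, and 3212 at E17 and 5448 at PN2 in papilla.

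The insulin-like growth factor system had the largest share of shared follicle genes among the BMP, Wnt, FGF, Hedgehog, retinoic acid and insulin-like growth factor lists. Of 16 genes, 9 were past 2-fold toward follicle at both stages and called, and 2 toward papilla, with a median of 1.29. Both ligands were on the follicle side. Igf1 had signals of 5336 in DF E17 and 4684 in DF PN2 against 163 in P E17 and 484 in P PN2, and Igf2 had 32022 in DF E17 and 22029 in DF PN2 against 1995 in P E17 and 1695 in P PN2. The binding proteins Igfbp5, Igfbp3, Igfbp6 and Igfbp2, which hold the ligands in tissue, were toward follicle with means of 6.89, 2.33, 2.31 and 1.29. Igfbp1 was toward papilla at -1.55. The 2 related proteases that cut binding proteins lay on opposite sides, Pappa2 toward follicle with 928 in DF E17 and 552 in DF PN2 against 129.8 in P E17 and 31.3 in P PN2 and Pappa toward papilla with 1053 in P E17 and 669 in P PN2 against 153 in DF E17 and 137 in DF PN2. Their mean log2 ratios were 3.49 ± 0.92 and -2.54 ± 0.35, with adjusted p of 0.00134 and 0.00238 in the limma fit. The clearance receptor Igf2r was toward follicle at 1.33, while the signalling receptor Igf1r was not called, at -0.55 at E17 and -0.14 at PN2.

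Retinoic acid, a vitamin A derivative that acts on nuclear receptors, had synthesising and degrading enzymes past 2-fold on the follicle side. Of 16 genes in its list, 5 were past 2-fold toward follicle at both stages and called, and 1 toward papilla. The synthesising enzyme Aldh1a2 had signals of 961 in DF E17 and 1083 in DF PN2 against 87.4 in P E17 and 90.8 in P PN2, and Aldh1a3 had 1761 in DF E17 and 2617 in DF PN2 against 217 in P E17 and 291 in P PN2. Their ratios were close between stages, at 3.46 and 3.58 for Aldh1a2 at E17 and PN2 and 3.02 and 3.17 for Aldh1a3. The degrading enzyme Cyp26b1 was on the same side at 2.37 at E17 and 3.16 at PN2, as were the retinol carrier Rbp4 (2.69 on average) and the reductase Dhrs3 (1.57). The retinol dehydrogenase Rdh10 lay toward papilla without a call, at -0.53 at E17 and -1.62 at PN2. The cellular binding protein Crabp1 was toward papilla, with signals of 8531 in P E17 and 9396 in P PN2 against 2539 in DF E17 and 1650.3 in DF PN2. None of the receptors Rara, Rarb, Rarg, Rxra and Rxrg in the list was called.

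BMP ligands divided between the tissues. Of 29 BMP and activin genes, 5 were past 2-fold toward follicle and 7 toward papilla at both stages, and 6 and 8 were called. Bmp3, a ligand known to oppose bone-forming BMPs, had follicle signals well above papilla signals, 967 in DF E17 and 1286 in DF PN2 against 112 in P E17 and 31.0 in P PN2, with ratios of 3.11 at E17 and 5.37 at PN2. Its P PN2 signal lay under 37.9, as did those of Pappa2 and Gas1, so these PN2 ratios are less exact. Bmp5 and Bmp6 were on the same side, with means of 3.12 ± 1.58 and 2.22 ± 0.87. On the papilla side, Bmp2 had signals of 8593 in P E17 and 16904 in P PN2 against 1077 in DF E17 and 744 in DF PN2 and Bmp4 had 826 in P E17 and 523 in P PN2 against 59.8 in DF E17 and 78.3 in DF PN2. Bmp2 and Bmp4 had mean log2 ratios of -3.75 ± 1.07 and -3.26 ± 0.74, and Bmp7 one of -2.61 ± 0.53. No signal of a papilla column overlapped a follicle column for these ligands, which the 2-fold limit at both stages favours. The BMP target genes Id1 and Id4 and the decoy receptor Bambi were called toward papilla, at -1.36, -2.04 and -1.37. Id2 and Id3 were not called, at 0.76 at E17 and 1.32 at PN2 for Id2 and -0.36 at E17 and -0.70 at PN2 for Id3. The secreted inhibitors were split as the ligands were, with Grem1 (1.85) and Chrdl1 (1.63) toward follicle and follistatin (Fst) toward papilla at -2.44 at E17 and -2.28 at PN2. The activin subunit Inhba was toward follicle at 2.03.

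FGF and Wnt genes were found on both sides. Of 23 FGF genes, 3 were past 2-fold toward follicle and 2 toward papilla at both stages. Fgf3, a ligand of the papilla in early tooth development, had signals of 774 in P E17 and 520.2 in P PN2 against 40.8 in DF E17 and 38.4 in DF PN2, and Fgf10, another mesenchymal ligand of the tooth, had 709.6 in P E17 and 209 in P PN2 against 148 in DF E17 and 51.0 in DF PN2. Toward follicle were Fgf18, with ratios of 4.51 at E17 and 1.55 at PN2, Fgf7, with 2.18 at E17 and 1.30 at PN2, and the receptor Fgfr2, with signals of 3170.4 in DF E17 and 2261 in DF PN2 against 353 in P E17 and 448 in P PN2. The feedback genes Dusp6, Spry2 and Spry4 were not called, and Dusp6 had ratios of opposite sign, -0.93 at E17 and 1.98 at PN2. Of 38 Wnt genes, 5 were past 2-fold toward follicle and 6 toward papilla. Among the soluble inhibitors, Sfrp4 had signals of 3629 in DF E17 and 7489.7 in DF PN2 against 197 in P E17 and 223 in P PN2 and Sfrp5 was on the same side at 4.07 at E17 and 1.89 at PN2. Dkk1, which blocks the coreceptors Lrp5 and Lrp6, had signals of 1741 in P E17 and 1678 in P PN2 against 162 in DF E17 and 195 in DF PN2 and a mean log2 ratio of -3.26 ± 0.22, while Dkk2, Dkk3 and Sfrp1 were not called. Notum and Wif1, a Wnt deacylase and a Wnt-binding protein, were on the papilla side too, at -2.42 and -1.50. The ligand Wnt2b was toward follicle at 2.70, and Wnt10a, a ligand whose loss in humans causes missing teeth, and Wnt5a were toward papilla at -2.64 and -2.18. Lgr5, a receptor for R-spondins, was toward follicle at 1.92 at E17 and 2.76 at PN2.

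**Figure D3:**
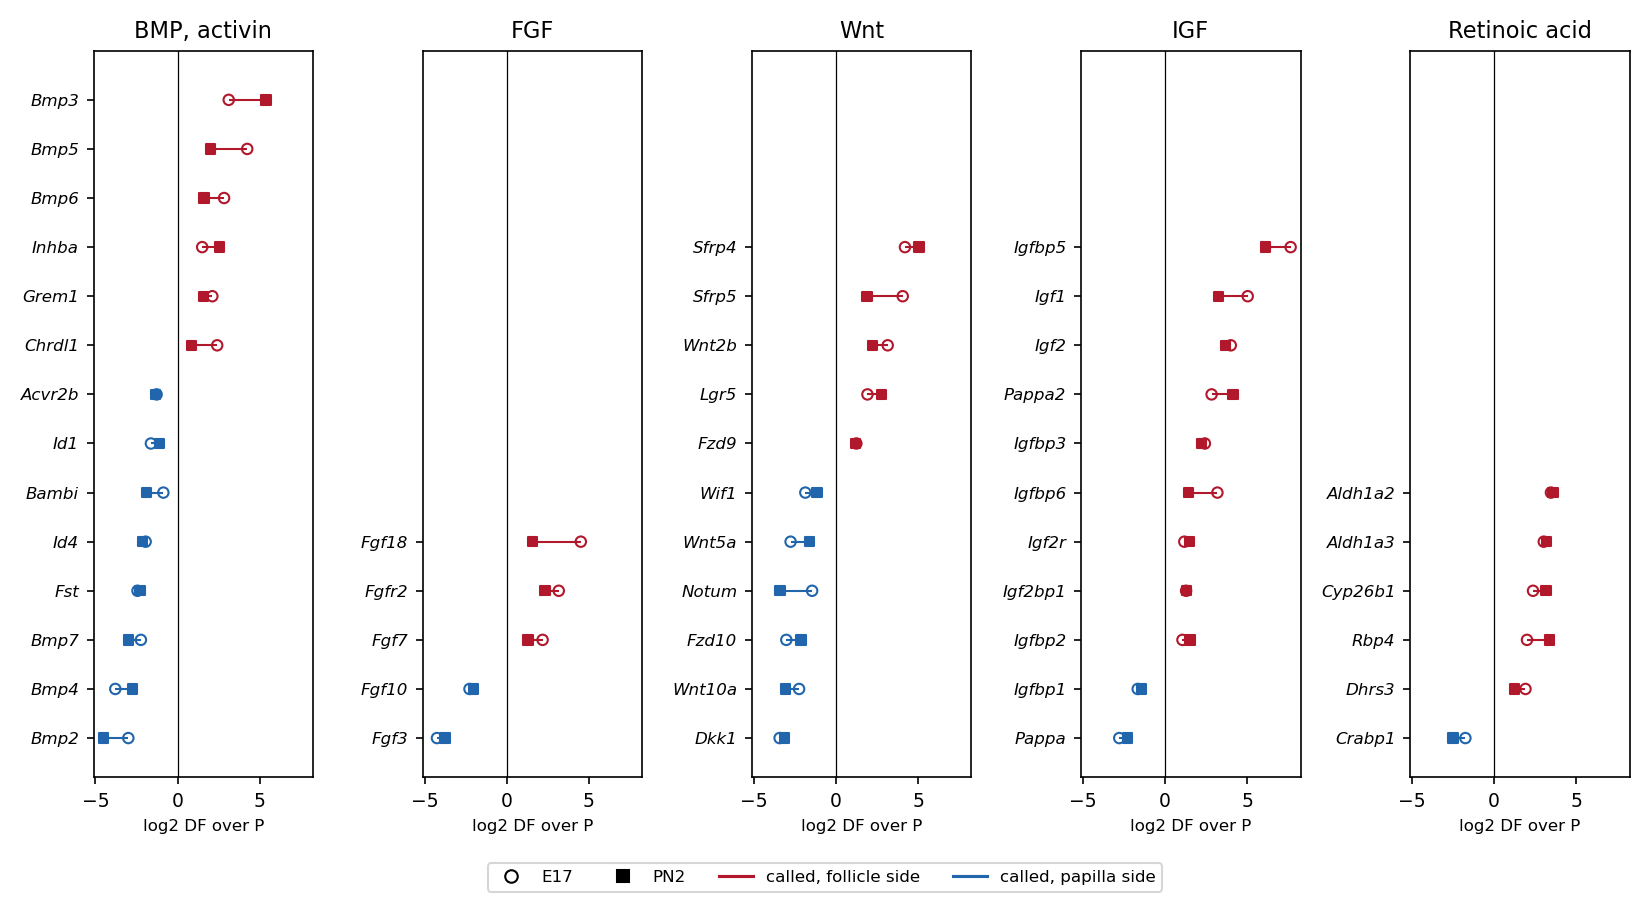
Called genes of 5 signalling lists, with log2 DF over P on the x axis, open circles for E17, filled squares for PN2 and a line joining both stages. Red genes were called toward follicle and blue genes toward papilla, and Bmp3 stands at 3.11 and 5.37 while Bmp4 stands at -3.79 and -2.74.

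Hedgehog genes followed neither tissue as a group, with 3 of 11 past 2-fold toward follicle and 1 toward papilla. Dhh, Gas1 and Cdon were toward follicle, and Gas1, a coreceptor, had signals of 833 in DF E17 and 865 in DF PN2 against 37.9 in P E17 and 27.3 in P PN2. The receptor and target gene Ptch1 was toward papilla, with signals of 2208 in P E17 and 2565 in P PN2 against 674 in DF E17 and 585 in DF PN2 and a mean log2 ratio of -1.92 ± 0.30. Shh and the target gene Gli1 were also called toward papilla, at -0.79 at E17 and -2.19 at PN2 for Shh and -0.98 at E17 and -1.80 at PN2 for Gli1, and both calls were lost with the deposited ratios, that of Gli1 also with median centring and with no normalisation. Shh is known from tooth epithelium.

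The 15 leading papilla genes began with Sall3, Sorcs3, Nebl, Plppr1 and C1ql1. Sall3, a zinc finger factor, had signals of 2482 in P E17 and 1962 in P PN2 against 67.3 in DF E17 and 45.9 in DF PN2, a mean log2 ratio of -5.31 ± 0.15 and an adjusted p of 0.000197 in the limma fit. Nebl, an actin-binding protein gene, had signals of 1653 in P E17 and 3031 in P PN2 against 60.2 in DF E17 and 64.9 in DF PN2, and the neuronal contactin gene Cntn6 had 4086 in P E17 and 4103 in P PN2 against 239 in DF E17 and 123 in DF PN2. In each the papilla columns lay more than 16-fold above the follicle columns at both stages. Plppr1, a brain phospholipid phosphatase-related protein, had ratios of -4.72 at E17 and -5.03 at PN2. The synapse-organising C1ql1, from the same family as the follicle gene C1ql3, lay on the opposite side from it, with signals of 679.7 in P E17 and 1281 in P PN2 against 21.5 in DF E17 and 64.6 in DF PN2. Its DF E17 signal was under 37.9, and with that signal raised to 37.9 the smaller of its 2 ratios stayed past 16-fold. Sorcs3, a sorting receptor, also had follicle signals at the floor, 1057 in P E17 and 1414 in P PN2 against 37.9 in DF E17 and 29.4 in DF PN2. Sntg2, Stk32a, Lratd1 and Fndc3c1 completed the leading genes outside the Fgf and Dlx families, with means between -4.72 and -3.37.

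Among papilla and odontogenic transcription factors, 12 of 21 were past 2-fold toward papilla at both stages and called, and 2 toward follicle, with a median of -1.55. The list holds Sall3, described above, and was chosen with earlier results of these data known. Dlx3 had signals of 4925 in P E17 and 3548 in P PN2 against 217 in DF E17 and 307 in DF PN2 and a mean log2 ratio of -4.02 ± 0.69. Dlx1 had -3.42, Dlx4 -3.27, Dlx5 -2.26 and Dlx6 -2.98, while Dlx2 was not called, at -2.33 at E17 and -0.07 at PN2. The non-coding neighbours Dlx4os, Dlx6os1 and Dlx6os2 were among the 15 leading papilla genes, with means of -3.64, -4.20 and -3.32. They overlap or flank the Dlx genes, and the sources used here do not say whether the array tells the strands apart. Msx2 had signals of 5355 in P E17 and 7722 in P PN2 against 235 in DF E17 and 1177 in DF PN2, and its paralogue Msx1 was not called, at 0.53 at E17 and 0.66 at PN2. Barx1, a molar homeobox factor, stood at -2.83 at E17 and -1.69 at PN2, Pax9, which early tooth mesenchyme needs, at -4.29 at E17 and -1.88 at PN2, and Lhx6 at -2.36 at E17 and -2.07 at PN2. On the follicle side were Alx4, with signals of 974 in DF E17 and 450.2 in DF PN2 against 40.6 in P E17 and 33.9 in P PN2, and Prrx1, at 1.38 at E17 and 1.28 at PN2. Lef1 and Twist1 had opposite signs at the 2 stages, at -1.39 and 0.60 for Lef1 and -0.92 and 0.67 for Twist1.

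Markers of hard tissue cells gave no single direction. Of 9 odontoblast and dentin genes, 2 were past 2-fold toward follicle and 3 toward papilla. The papilla genes were Dlx3, Wnt10a and the sphingomyelinase Smpd3, at -2.89 at E17 and -2.24 at PN2. The follicle genes were Sparc and Col1a2, and the type I collagen gene Col1a1 was called at 3.01 at E17 and 0.80 at PN2, with signals of 51327 in DF E17 and 51327 in DF PN2 against 6362 in P E17 and 29511 in P PN2. The follicle signals of Col1a1 lay at the top of the scale in both columns. Col1a2 was dim on its 1 probe, with signals of 93.3 in DF E17 and 143 in DF PN2 against 27.1 in P E17 and 70.9 in P PN2. Its P E17 signal was under 37.9 and its ratio at PN2 was 1.01, just past 2-fold. The call of Col1a2 was lost with median centring and with no normalisation. The list's median of -0.08 changed sign under other scalings, to 0.08 with median centring. Of 10 bone genes, 4 were past 2-fold toward follicle (Ibsp, Mgp, Phospho1 and Slc13a5, the last not called with median centring or the deposited ratios). Omd was called toward papilla, at -0.66 at E17 and -2.89 at PN2. Its call was lost with median centring, with the deposited ratios and with low signals raised to the 5th percentile. Panx3, at 0.91 at E17 and -1.92 at PN2, was not called. The osteoblast factor Sp7 was not called either, at 0.35 at E17 and -0.71 at PN2. Matrix Gla protein (Mgp), an inhibitor of calcification, had signals of 820.5 in DF E17 and 301 in DF PN2 against 18.2 in P E17 and 33.9 in P PN2. Of 6 enamel genes, 3 were past 2-fold toward papilla at both stages and 4 were called, among them ameloblastin (Ambn) at -1.39 at E17 and -3.48 at PN2 and Sp6 at -2.77 at E17 and -4.09 at PN2. Enamel matrix genes belong to ameloblasts of the inner enamel epithelium, which borders the papilla. Signal summed over the enamel list was 936 at E17 and 1294 at PN2 in follicle, and 3099.5 at E17 and 10523 at PN2 in papilla. Most of the papilla sum was Sp6, with 2002 in P E17 and 9018 in P PN2. The matrix genes were dimmer in papilla, Ambn with 100 at E17 and 367 at PN2 and Amelx with 162 at E17 and 539 at PN2. General epithelial genes did not move with the enamel list. Of 14, 2 were past 2-fold toward follicle (Cldn1 and Krt15, the latter not called under 4 of the other settings) and 0 toward papilla, Krt14 lay at -0.55 at E17 and -0.72 at PN2 and Epcam at 1.02 at E17 and -1.60 at PN2, and the summed signal was 7209.6 at E17 and 6394 at PN2 in follicle, and 3980.4 at E17 and 6724 at PN2 in papilla. The part of epithelium in the papilla ratios was not tested.

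The genes listed here for follicle and ligament fibroblasts were split, and not every member of the list is particular to these cells. Of 15, 5 were past 2-fold toward follicle (Bmp3, Ogn, Lox, Pth1r and Mkx) and 3 toward papilla (Osr2, Fbn2 and Pdgfra). The call of Pdgfra was lost with median centring, with no normalisation and with the deposited ratios. Pth1r, the parathyroid hormone receptor needed for eruption, had signals of 217 in DF E17 and 268 in DF PN2 against 65.7 in P E17 and 91.1 in P PN2. Ogn, a small proteoglycan, had 34240.3 in DF E17 and 22098 in DF PN2 against 2226 in P E17 and 2959 in P PN2. Osr2, a factor known to restrict where teeth form, had 1306 in P E17 and 1326 in P PN2 against 83.4 in DF E17 and 174 in DF PN2. The ligament factors Scx and Postn were not called, at -0.46 at E17 and -0.39 at PN2 and 0.52 at E17 and 1.14 at PN2. Set against the labels of the tissues, 12 of 21 papilla and odontogenic factors were past 2-fold on the papilla side, and 5 of 15 follicle fibroblast genes on the follicle side. Both lists were chosen with earlier results of these data known, so the counts are no independent check of the labels.

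Collagen genes leaned toward follicle at both stages, and elastic fibre and small proteoglycan genes did so mainly at E17. Of 28 collagen genes, 8 were past 2-fold toward follicle and 2 toward papilla, with a median of 0.94 (1.14 at E17 and 0.77 at PN2). Col13a1, a membrane collagen, had signals of 442 in DF E17 and 637 in DF PN2 against 163 in P E17 and 67.7 in P PN2. The basement membrane and vessel wall collagens Col4a1, Col15a1 and Col18a1 were on the same side, at 1.14, 1.29 and 1.25. Col7a1, the anchoring fibril collagen, and the membrane collagen Col23a1 were toward papilla, with signals of 4531 in P E17 and 5637 in P PN2 against 675 in DF E17 and 832 in DF PN2 and 304 in P E17 and 1238 in P PN2 against 79.0 in DF E17 and 91.7 in DF PN2. Of 22 elastic fibre and small proteoglycan genes, 6 were past 2-fold toward follicle and 2 toward papilla. The median of this list was 1.17 at E17 and 0.23 at PN2. Its summed signal was 109461 in follicle against 41735.5 in papilla at E17, and 62696 against 57933 at PN2. Elastin (Eln) had signals of 15703 in DF E17 and 3303 in DF PN2 against 437 in P E17 and 425 in P PN2, and the crosslinking enzyme Loxl1 had a mean of 2.06. The microfibril gene Fbn2 and its partner Ltbp2 lay on the other side, at -1.57 at E17 and -3.30 at PN2 and -1.28 at E17 and -2.61 at PN2. The 7 cartilage genes leaned toward papilla, with a median of -1.18. Past 2-fold at both stages were 1 toward follicle and 2 toward papilla, and 1 and 4 were called. The papilla calls fell to 2 with the deposited ratios. Col2a1 was toward follicle at 1.11 at E17 and 1.60 at PN2. Toward papilla were Sox9, at -1.84 at E17 and -2.36 at PN2, and Hapln1, at -1.23 at E17 and -1.13 at PN2.

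Guidance molecules, which steer axons and vessels, were found on both sides. Of 34 genes, 8 were past 2-fold toward follicle and 4 toward papilla at both stages. Netrin 1 (Ntn1) had signals of 401 in DF E17 and 615 in DF PN2 against 78.1 in P E17 and 64.1 in P PN2, and its receptor Neo1 was on the same side at 1.34. The netrin receptors Unc5c and Unc5d were toward papilla, with Unc5d at 222 in P E17 and 150.1 in P PN2 against 45.5 in DF E17 and 42.5 in DF PN2. The neuropilins Nrp1 and Nrp2, receptors for semaphorins and vascular growth factor, were toward follicle at 1.48 and 1.93, and the Slit receptor Robo1 toward papilla at -1.60. Rgma, a ligand of Neo1, had the largest mean of the list, 2.91 ± 1.28. Of 31 contactin, cadherin and synaptic adhesion genes, 3 were past 2-fold toward follicle (Lrrn3, L1cam and Ncam1) and 4 toward papilla (Cntn6, Astn1, Cntn3 and Lrrtm1). L1cam, which Schwann cells and axons carry, had signals of 424 in DF E17 and 1139 in DF PN2 against 51.9 in P E17 and 61.3 in P PN2, and Cntn3 had 354 in P E17 and 98.1 in P PN2 against 43.6 in DF E17 and 29.6 in DF PN2. The list's median of 0.05 changed sign with median centring, to -0.02.

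Of 15 endothelial genes, 4 were past 2-fold toward follicle (Erg, Sox17, Cdh5 and Tek), and the calls of Sox17, Cdh5 and Tek were lost with no normalisation. Pecam1 and Kdr were not called, at 0.30 at E17 and 0.40 at PN2 and -0.46 at E17 and 0.63 at PN2. Of 12 pericyte and smooth muscle genes, Mcam and Tagln were past 2-fold toward follicle, at 1.65 and 1.64, and the potassium channel Kcnj8 toward papilla at -1.88 at E17 and -2.17 at PN2. Of 7 skeletal muscle genes, Actn3 and Acta1 were past 2-fold toward follicle. Both papilla signals of Actn3 lay under 37.9, so its ratios are less exact. Myod1, the brightest gene of the list, was called toward papilla, at -0.95 at E17 and -1.49 at PN2. Its call was lost with median centring, with no normalisation and with the deposited ratios. Myh8 lay on the papilla side without a call. The list's median of 0.16 turned to -0.11 with median centring. Of 7 fat and lipid uptake genes, Fabp4 and Cd36 were past 2-fold toward follicle, while the fat cell genes Adipoq and Pparg were not called. Fabp4, a lipid carrier of fat cells, macrophages and capillaries, had near-equal ratios at both stages, with signals of 2643 in DF E17 and 1921 in DF PN2 against 245 in P E17 and 177 in P PN2. Of 12 Hox and positional homeobox genes, Irx3 was past 2-fold toward follicle, with signals of 365 in DF E17 and 514 in DF PN2 against 33.3 in P E17 and 156 in P PN2.

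Some groups had a difference at 1 stage but not at both. None of 5 neutrophil granule genes was past 2-fold at both stages or called, with list medians of 0.29 at E17 and 5.59 at PN2. S100a9, a neutrophil calcium-binding protein, had signals of 92.8 in DF E17 and 28419.8 in DF PN2 against 75.8 in P E17 and 199 in P PN2. None of 6 erythroid genes was past 2-fold at both stages, and the band 3 gene Slc4a1 lay at 0.37 at E17 and 4.15 at PN2. None of 26 cell cycle genes was past 2-fold at both stages or called by limma, and Mki67 lay at -0.29 at E17 and 0.59 at PN2. Summed signals were 371 at E17 and 45070.5 at PN2 in follicle, and 379.6 at E17 and 648 at PN2 in papilla for the neutrophil list and 6286 at E17 and 19555 at PN2 in follicle, and 7513 at E17 and 3570.5 at PN2 in papilla for the erythroid list. With no normalisation, S100a9, Ngp, Lcn2, Ltf, Slc4a1 and the cell cycle inhibitor Cdkn1c were called toward follicle, and with the deposited ratios the housekeeping genes B2m and Gusb were. At an unadjusted limma p under 0.05 were 3 neutrophil, 2 erythroid and 2 cell cycle genes, and 3 of the 10 housekeeping genes. Of these 10 housekeeping genes 0 were called after adjustment, their median was 0.02, and 1, Gusb, was just past 2-fold at both stages with 1.09 at E17 and 1.01 at PN2.

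**Figure D4:**
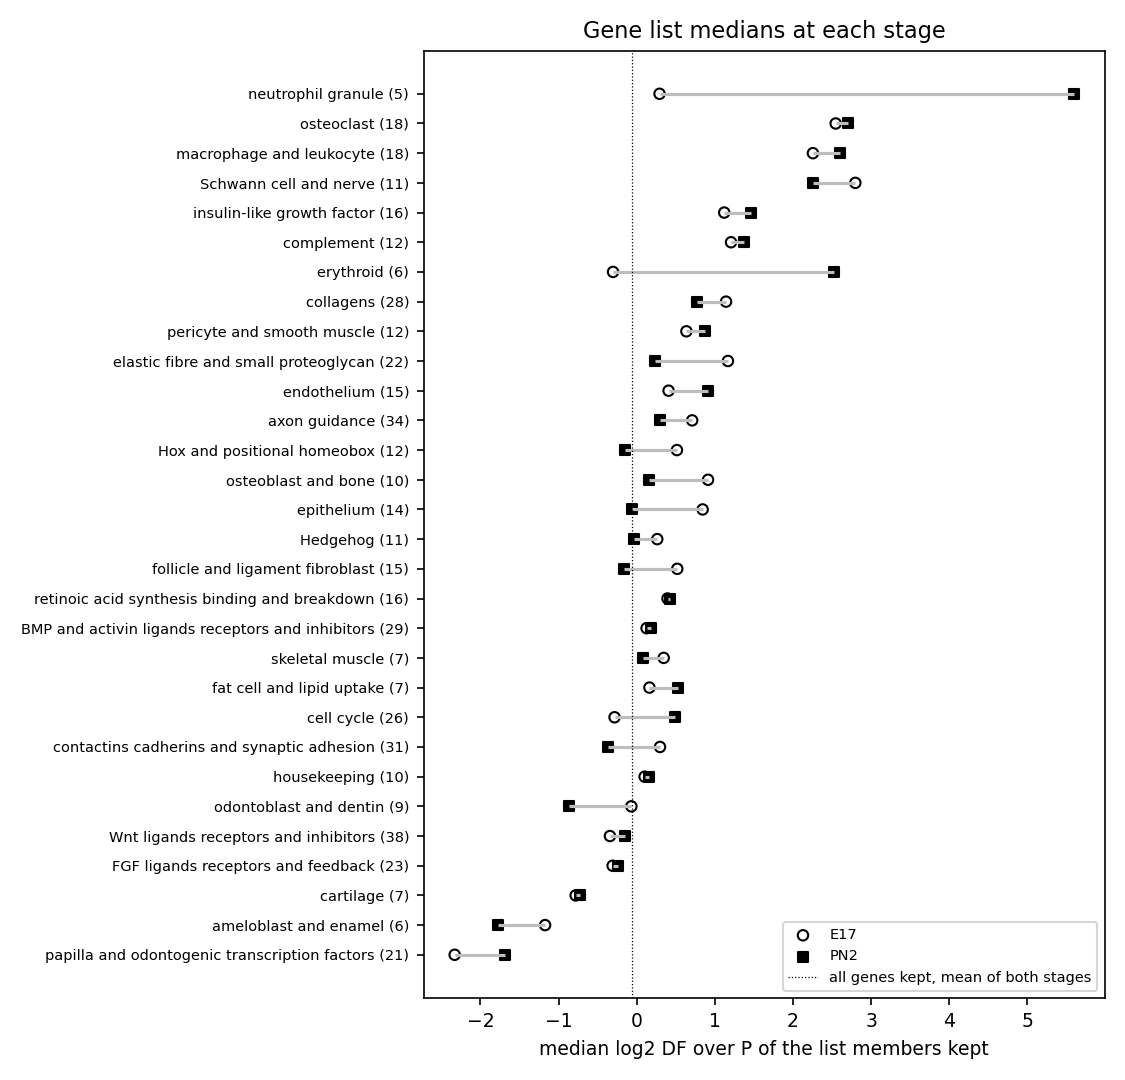
Median log2 DF over P of the members of each of 30 gene lists, with the number of genes kept in brackets, open circles for E17, filled squares for PN2 and a dotted line at the median of all genes, -0.06. Osteoclast, leukocyte and glial medians lie near each other at both stages, whereas the neutrophil median goes from 0.29 to 5.59.

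Some genes held almost the same ratio at both stages. On the follicle side the smallest differences between the stages among genes past 8-fold were those of Fabp4, with 3.43 at E17 and 3.44 at PN2, Atp6v1b2, with 3.08 at E17 and 3.06 at PN2, Eya2, with 3.42 at E17 and 3.39 at PN2, Olfml2b, with 3.31 at E17 and 3.35 at PN2, and Ednrb, described above. Slc9b2 counted among the steadiest genes only because its P E17 signal of 18.5 was raised to 37.9, and its own ratios were 6.15 at E17 and 5.15 at PN2. Atp6v1b2 is a subunit of the proton pump, and Eya2 is a transcriptional cofactor. On the papilla side they were Sall3, Plppr1 and Dkk1, described above, and Galnt13, a glycosyltransferase gene with signals of 435 in P E17 and 665 in P PN2 against 51.4 in DF E17 and 63.3 in DF PN2. C1ql1 counted among them only with its low signal raised, and its own ratios were -4.98 at E17 and -4.31 at PN2.

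The shared genes of the 2 sides also differed in how brightly they were measured. The median of the highest signal was 699 for follicle genes, 417 for papilla genes and 468 for all genes. In genes whose highest signal lay between 100 and 200, 3.05% were shared follicle genes and 5.72% shared papilla genes. At 5000 and over the shares were 10.5% and 4.94%. The other tissue was under the 5th percentile at both stages for 39 follicle genes and 17 papilla genes, and their ratios are less exact. Sensory receptor symbols, of the Olfr, Vmn, Taar, Tas2r and Mrgpr families, are known from nose and tongue, and were singled out after their values were seen. Of 382 kept, 111 (29.1%) were past 2-fold toward papilla at both stages and 0 toward follicle, against 5.62% of all genes toward papilla. Their median log2 ratio was -0.91 at E17 and -1.16 at PN2, and the median of their highest signal was 219. Under the other scalings run, their median mean log2 ratio lay between -1.07 and -1.26 and 99 to 173 of them were past 2-fold toward papilla, against -1.03 and 111 here. These scalings (median centring, no normalisation and the deposited ratios) differ from each other by a constant per array only. They are therefore no separate checks. Relative to the median of all genes, each gave -1.21, and the main setting gave -0.96. The part of the dye, of low signal and of base composition in these ratios was not tested.

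**Figure D5:**
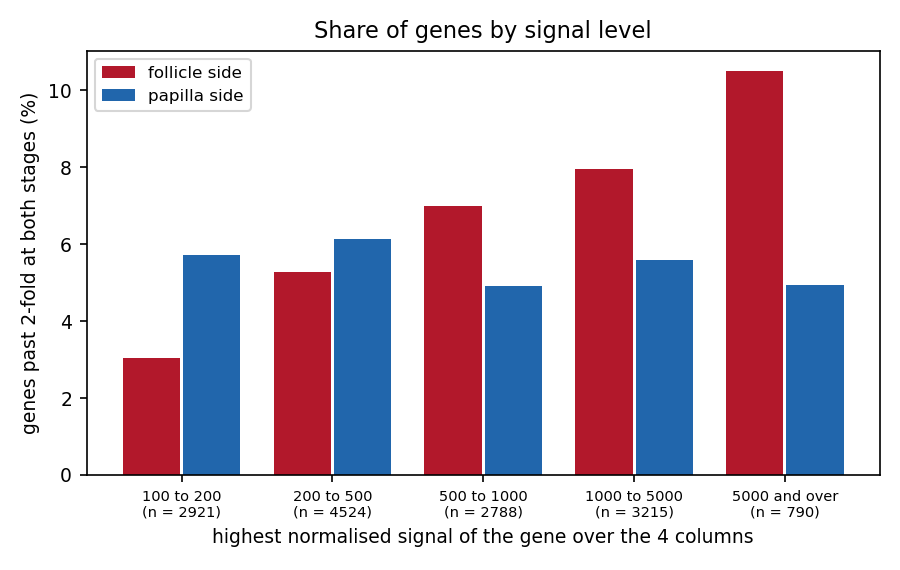
Percent of genes past 2-fold at both stages on each side (y axis), by the highest normalised signal of the gene (x axis), with the number of genes in each class. The follicle share goes from 3.05% in the dimmest class to 10.5% in the brightest, while the papilla share stays between 4.91% and 6.12%.

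Shared genes of a side often lay next to each other in the RefSeq annotation. The next gene kept was also a shared gene of the same side for 85 of 859 follicle genes (9.90%) and for 135 of 792 papilla genes (17.05%), against 6.05% and 5.62% of all genes. Runs on the papilla side were Dlx3, Dlx4 and Dlx4os, and Dlx6os1, Dlx6, Dlx6os2 and Dlx5, besides clusters of olfactory, vomeronasal, Pramel and Klk1b genes. Such clusters hold near-identical copies, and probes that cross-hybridise between them cannot be told from separate genes. Runs on the follicle side were C1qb, C1qc and C1qa, the potassium channel genes Kcna5, Kcna1 and Kcna6, and the cytokine receptor genes Csf2rb2 and Csf2rb with Ncf4.

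Promoter sequences were compared over the 250 bases before the annotated start in RefSeq (GRCm38.p6), taking the first start by coordinate, for 11406 of the genes kept, 639 shared follicle genes and 635 shared papilla genes. The motifs searched on both strands were TAATTA, the core bound by many homeodomain factors, TGTGGT, the core of the Runx site, GAGGAAG, a purine-rich Ets-type element bound by PU.1, and CACGTG, an E-box. TAATTA was present in 3.30% of all promoters, 2.50% of follicle and 8.03% of papilla promoters. TGTGGT was present in 11.4%, 8.76% and 14.3%, GAGGAAG in 10.5%, 11.1% and 10.1%, and CACGTG in 7.74%, 10.3% and 4.88%. Base composition moved with these shares. The median GC content was 58.8% for all, 59.6% for follicle and 50.8% for papilla promoters. Among genes with a highest signal of at least 1000, median GC was 60.4%, 59.2% and 57.0%. TAATTA was present there in 2.47% of 3200, 1.60% of 250 and 7.23% (12) of 166 promoters. In the same order, TGTGGT was present in 10.6%, 8.80% and 12.7%, GAGGAAG in 11.2%, 10.8% and 14.5%, and CACGTG in 8.81%, 10.4% and 6.02%. A match is a description of letters and not a site of binding.

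The promoters of the first 2 leading genes on each side that hold a motif, and of the first 2 papilla genes in the order of their smaller ratio that hold TAATTA, show where the motifs lie. The TAATTA pair was chosen after the shares were seen. Capitals mark the motif, in either orientation, and each sequence runs from 5′ to 3′ in the direction of the gene. In the Mmp13 promoter (chr9:7272264-7272513, plus strand) the Runx core begins 118 bases before the start, in reverse orientation.
Mmp13: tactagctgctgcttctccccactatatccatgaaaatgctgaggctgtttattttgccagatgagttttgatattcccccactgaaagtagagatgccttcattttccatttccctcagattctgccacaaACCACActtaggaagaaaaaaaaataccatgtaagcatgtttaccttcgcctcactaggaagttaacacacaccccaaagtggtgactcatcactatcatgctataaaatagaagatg
In the Ptgfr promoter (chr3:151837529-151837778, minus strand) GAGGAAG begins 11 bases before the start.
Ptgfr: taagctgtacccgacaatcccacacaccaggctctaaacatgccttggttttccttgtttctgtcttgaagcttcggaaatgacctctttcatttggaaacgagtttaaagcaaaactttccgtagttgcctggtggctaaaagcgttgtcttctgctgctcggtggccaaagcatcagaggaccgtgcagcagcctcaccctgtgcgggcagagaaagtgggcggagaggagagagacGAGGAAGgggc
In the Nebl promoter (chr2:17462857-17463106, minus strand) the Runx core begins 64 bases before the start.
Nebl: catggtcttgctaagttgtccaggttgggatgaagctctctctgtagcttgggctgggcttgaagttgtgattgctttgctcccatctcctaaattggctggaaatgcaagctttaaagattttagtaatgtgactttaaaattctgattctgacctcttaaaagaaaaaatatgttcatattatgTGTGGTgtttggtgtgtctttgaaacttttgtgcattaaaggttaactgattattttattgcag
In the Cntn6 promoter (chr6:104492794-104493043, plus strand) GAGGAAG begins 106 bases before the start.
Cntn6: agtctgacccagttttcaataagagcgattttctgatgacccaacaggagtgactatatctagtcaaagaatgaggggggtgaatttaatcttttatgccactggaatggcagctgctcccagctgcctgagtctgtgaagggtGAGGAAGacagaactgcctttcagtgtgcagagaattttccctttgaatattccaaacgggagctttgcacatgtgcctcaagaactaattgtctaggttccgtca
The homeodomain core begins 174 bases before the start of Dlx6os1 (chr6:6861684-6861933, minus strand) and 187 bases before that of Msx2 (chr13:53472781-53473030, minus strand).
Dlx6os1: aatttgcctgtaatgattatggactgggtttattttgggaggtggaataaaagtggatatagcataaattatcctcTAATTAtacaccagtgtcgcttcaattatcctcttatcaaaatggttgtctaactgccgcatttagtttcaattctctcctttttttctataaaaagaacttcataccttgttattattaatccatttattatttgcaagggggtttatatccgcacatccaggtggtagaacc
Msx2: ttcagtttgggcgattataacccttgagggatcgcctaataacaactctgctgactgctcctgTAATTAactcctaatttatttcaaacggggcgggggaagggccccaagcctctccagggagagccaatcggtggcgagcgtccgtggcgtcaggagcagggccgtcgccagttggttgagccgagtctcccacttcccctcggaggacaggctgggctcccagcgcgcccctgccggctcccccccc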

How the data were processed

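By the labels, RNA of dental follicle and papilla was measured on 4 arrays with 2 colours. Per the submitters' processing notes, Agilent Feature Extraction 8.5.1.1 was used. The deposited tables hold linear signal intensity, 2 columns per array and 30146 probes; background subtraction was not given in the sources used here. The deposited value table holds log10 ratios of the same arrays, used as an alternative; in each array they differ from log10 ratios of the signals by a constant. Each tissue and stage had 1 distinct column of intensity, with 100% of probes identical wherever it recurred. Pairing of follicle and papilla comes from the labels, by stage.

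The 25962 probes with 1 symbol in the platform annotation were used, and 4184 without one were left out. Intensities were turned to log2, quantile normalised over 4 columns and averaged by gene. Genes with a highest signal of at least 100 were kept. The mean log2 ratio was tested with limma 3.58.1 in R 4.3.3 (stage and tissue as terms, eBayes), which was tested on simulated data. Genes named are the 15 on each side with the largest smaller ratio (low signals raised to the 5th percentile, clone and predicted names left out), the 5 steadiest past 8-fold, the 4 highest and 4 lowest of each of 30 lists, 3 per direction with opposite signs, and housekeeping genes; any other gene was named after its values were seen. Genes and lists were chosen with earlier results of these data known. Alternatives changed the filter, normalisation, source of values, probe summary, fold, stage term and variance model.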

Additional observations from a re-analysis of the deposited data

Results flagged for a closer look

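Genes with clear ratios of opposite sign are no part of the shared differences, and 3 in each direction are given here. Every value of a gene at E17 lies on one side and every value at PN2 on the other, with 1 array per stage, and the difference between the stages was not tested. Wfdc1, Rnf180 and Abi3bp were toward follicle at E17 and toward papilla at PN2. The ratio at PN2 minus that at E17 was -4.08 on the log2 scale for Wfdc1, -4.01 for Rnf180 and -3.94 for Abi3bp. Chil1, Cldn13 and Xist ran the other way, with differences of 5.33 for Chil1, 4.85 for Cldn13 and 9.42 for Xist. The signals of Xist, the non-coding RNA of the inactive X chromosome, were 19.7 in follicle and 3846 in papilla at E17, and 2890.4 in follicle and 827 in papilla at PN2. The sources used here do not give the sex of the animals, and its part in the other ratios was not tested.

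Probes without a gene symbol are used in no comparison above. Of 3422 such probes with a signal of at least 100, 197 were past 2-fold toward follicle at both stages and 318 toward papilla. They have no gene name here.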

How the results depend on the processing

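Of the 253 named genes, 152 were called, and 0 of these changed the sign of their mean ratio under the 7 alternatives run on them. For E17 alone and PN2 alone this was fixed in advance, since no call fell on a gene with ratios of opposite sign. The other 5 rework the same signals, and called means lay far from 0 (Pdgfra, for example, at -1.16). An unchanged sign under them is therefore weak support. Of the 101 not called, 27 changed sign with E17 alone, 13 with PN2 alone and 1 to 9 under the other 5. Beside the skeletal muscle, odontoblast and adhesion lists given above, the list median changed sign for erythroid and cell cycle genes with E17 alone. With PN2 alone it did so for epithelium, follicle fibroblast, Hox, Hedgehog and adhesion genes. The count of genes past 2-fold at both stages was 862 toward follicle and 800 toward papilla. A 1.5-fold limit gave 1676 and 1993, and a 4-fold limit 235 and 102. Taking 1 stage alone gave between 1495 and 1829 toward follicle and between 1445 and 1908 toward papilla. Requiring a highest signal of at least 1000, an alternative chosen after seeing the data, left 339 and 219. The limma calls, 1021 and 995, became 445 and 214 without the replicate block, that is, without stage as a term; the pairing by stage comes from the labels. Under the other alternatives the limma calls lay between 814 and 1269 toward follicle and between 755 and 1188 toward papilla. Over all genes the median log2 ratio lay at -0.06, and at 0.13 with the deposited ratios. Dim signals limit the ratios of genes whose lower signal is under 37.9, and the arrays hold no repeated hybridisation to measure their error.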
